A study of Sus scrofa with 8 samples.

Results

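A set of 10 genes of corticosteroid signalling was followed in the heart of Tibetan and Yorkshire pigs. They are the receptors *NR3C1* and *NR3C2*, the cortisol-producing enzyme *HSD11B1* and the targets *FKBP5*, *TSC22D3*, *ZBTB16*, *SGK1*, *KLF9*, *KLF15* and *CEBPD*. They were chosen by name for their known place in the pathway, with earlier results of these data known. They make up 10 of the 18975 genes in the table. All 10 had at least 1 FPKM (read fragments scaled to exon length and to the mapped depth of the library) in at least 2 libraries, which was the condition for entering the tests with 11913 genes in all.

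The heart RNA came from male pigs slaughtered at 6 months of age, and the labels name no treatment. Tibetan pigs were kept in the highlands (TH) or the lowlands (TL), and so were Yorkshire pigs (YH and YL). Each of these 4 groups has 2 RNA-seq libraries, and 1 library is a pool of RNA of 4 pigs, so differences between single pigs cannot be seen. Breed and place of rearing are the only factors that the labels name.

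Glucocorticoids such as cortisol cross the cell membrane and bind the glucocorticoid receptor, which waits in the cytosol in a complex with heat shock proteins. The loaded receptor moves to the nucleus, where it raises the transcription of a set of rapidly responding genes, several of which dampen the signal again. The heart also holds the mineralocorticoid receptor, which binds cortisol as well as aldosterone, and corticosteroids are known to act on the metabolism, growth and contraction of heart muscle.

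The main observation is that none of the 10 genes passed the test in any comparison of breed or altitude. A gene was called where its limma adjusted p was under 0.01 and it differed by more than 1 on the log2 scale. By this rule 0 of the 10 were called in TH to YH, where 0.0336% of all genes tested were called. The count was likewise 0 in TL to YL (0.00839% of all genes), in TH to TL (0.0504%), in YH to YL (0%) and in the interaction of breed and altitude (0.0336%), which takes the altitude difference of the Tibetan pigs less that of the Yorkshire pigs. At an unadjusted limma p under 0.05, members numbered 0, 0 and 0 in the first 3 comparisons, where 16.2%, 8.94% and 11.3% of all genes reached it. In YH to YL 2 members reached it, *KLF15* and *HSD11B1*, against 5.97% of all genes, and 0 did in the interaction, against 10.9%. A p-value here rests on the spread between the 2 pools of a group, shared over all 4 groups and moderated across genes. An exact permutation test of 2 libraries against 2 cannot go below a two-sided p of 0.333.

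**Figure D1:**
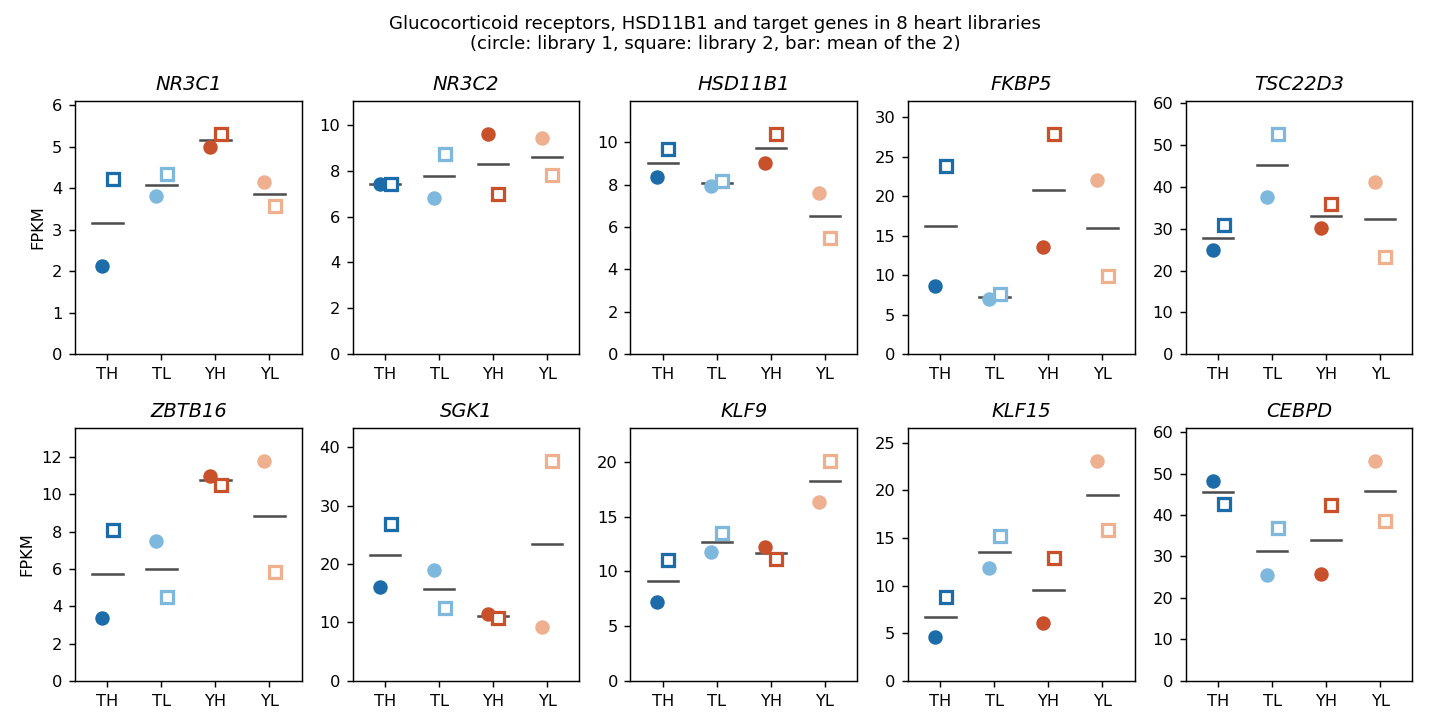
FPKM (linear axis from 0) of the 10 genes in the 8 libraries, grouped as TH, TL, YH and YL. Filled circles are library 1, open squares library 2, and the bar is the mean of both. *FKBP5* spans 7.02 to 27.9 FPKM with wide gaps inside TH, YH and YL, and *SGK1* is highest in YL2 at 37.7 FPKM.

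YL2 and TH1 stand apart, and many values are given without them too. YL2 holds RNA of kidney genes: 15 of 15 kidney markers in the table were more than 2 times as high there as in any other library, and their summed level was 8.96e+03 FPKM against 0.689 to 17.5 FPKM elsewhere. *UMOD*, the urinary protein of the kidney tubule, was at 947 FPKM in YL2, at 0.811 FPKM in TH2 and listed at 0 in the other 6. The FPKM values of TH1 added up to 8559104, while the sums of the other 7 libraries lay between 1563940 and 4017846. Summed cardiomyocyte markers ranged from 1.34e+04 FPKM in YL2 to 3.61e+04 FPKM in TH1, so heart muscle genes were abundant in every library. Reads on genes numbered 15686825 to 26722609 per library, and 88 to 2467 reads lay behind each value of the 10 genes.

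On the per-length FPKM scale, the highest mean levels over the 8 libraries belonged to *CEBPD* (39.1 FPKM) and *TSC22D3* (34.6 FPKM). *SGK1* (17.9), *FKBP5* (15.0), *KLF9* (12.9) and *KLF15* (12.3 FPKM) followed, then *HSD11B1* (8.33), *NR3C2* (8.02), *ZBTB16* (7.82) and *NR3C1* (4.06 FPKM). The ranges of each pair of neighbours in this order overlap. *CEBPD* lay at the 88.6th percentile of the mean level of all genes tested, and *NR3C1* at the 39th.

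*NR3C1* (ENSSSCG00000014401, Sscrofa10.2 chromosome 2, 151054872 to 151158579) encodes the glucocorticoid receptor itself. It was at 2.12 and 4.21 FPKM in TH, at 3.82 and 4.34 FPKM in TL, at 5.0 and 5.31 FPKM in YH and at 4.15 and 3.58 FPKM in YL. Both TH libraries lay below both YH libraries, TH1 far below the others. The log2 fold change from YH to TH was -0.61 with a standard error of 0.28 and a 95% interval of -1.27 to 0.05 (limma adjusted p = 0.338). Without TH1 the difference was -0.24, and without TH2 it was -0.98 (limma adjusted p = 0.0608). In bulk tissue, fewer cells of a type and less RNA per cell cannot be told apart.

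*NR3C2* (ENSSSCG00000024987, chromosome 8, 85602110 to 85645631) encodes the mineralocorticoid receptor. Its level was 7.40 FPKM in both TH libraries, 6.83 and 8.71 FPKM in TL, 9.61 and 6.97 FPKM in YH and 9.42 and 7.80 FPKM in YL. The groups overlap in every comparison. Its 4 log2 fold changes lay between -0.14 and -0.05, and the 95% interval was -0.69 to 0.43 in TH to YH and -0.62 to 0.50 in YH to YL, so a doubling of the level lies outside both.

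The FPKM ratio of *NR3C2* to *NR3C1* was above 1 in all 8 libraries, from 1.31 in YH2 to 3.49 in TH1. Both levels depend on how completely each gene was modelled in this pig annotation, so the ratio describes these models only.

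*HSD11B1* (ENSSSCG00000015616, scaffold GL894531.1, 609 to 25755) encodes the enzyme that turns inactive cortisone back into cortisol inside cells. The values were 8.36 and 9.67 FPKM in TH, 7.92 and 8.19 FPKM in TL, 9.04 and 10.4 FPKM in YH and 7.59 and 5.46 FPKM in YL. Both YL libraries were the lowest of the 8, but not under the scalings: TH1 (7.07) lay below YL1 (7.36) with median-ratio scaling and was the lowest of all (3.06) with equal FPKM sums. The YH to YL difference was 0.53 on the log2 scale with a standard error of 0.22, a 95% interval of 0.00 to 1.05 and an unadjusted limma p of 0.0499 that was 0.784 after adjustment. It was 0.32 without YL2 (limma adjusted p = 0.917), the library with the kidney genes, and 0.73 without YL1 (limma adjusted p = 0.102).

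*HSD11B2*, the opposing enzyme that inactivates cortisol and so shields the mineralocorticoid receptor in the kidney, was at 29.3 FPKM in YL2 and at 0 to 0.187 FPKM in the other 7 libraries. It therefore did not enter the tests, which need 2 libraries at 1 FPKM. Genes that sodium-retaining epithelia use under aldosterone, named here after their values were seen, had the same distribution. *SCNN1A*, a subunit of the epithelial sodium channel, was at 13.7 FPKM in YL2 and at most 0.233 FPKM elsewhere, and the potassium channel gene *KCNJ1* was at 22.0 FPKM in YL2 and listed at 0 in the other 7. The other two channel subunits, *SCNN1B* and *SCNN1G*, were at 4.89 and 6.78 FPKM in YL2 and at most 0.0262 and 0.0122 FPKM in any other library. *SRD5A1*, which reduces steroid hormones, was at 15.8 FPKM in YL2 and 0.833 to 3.26 FPKM elsewhere. The summed level of 6 adrenal cortex markers was at most 0.542 FPKM in any library.

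**Figure D2:**
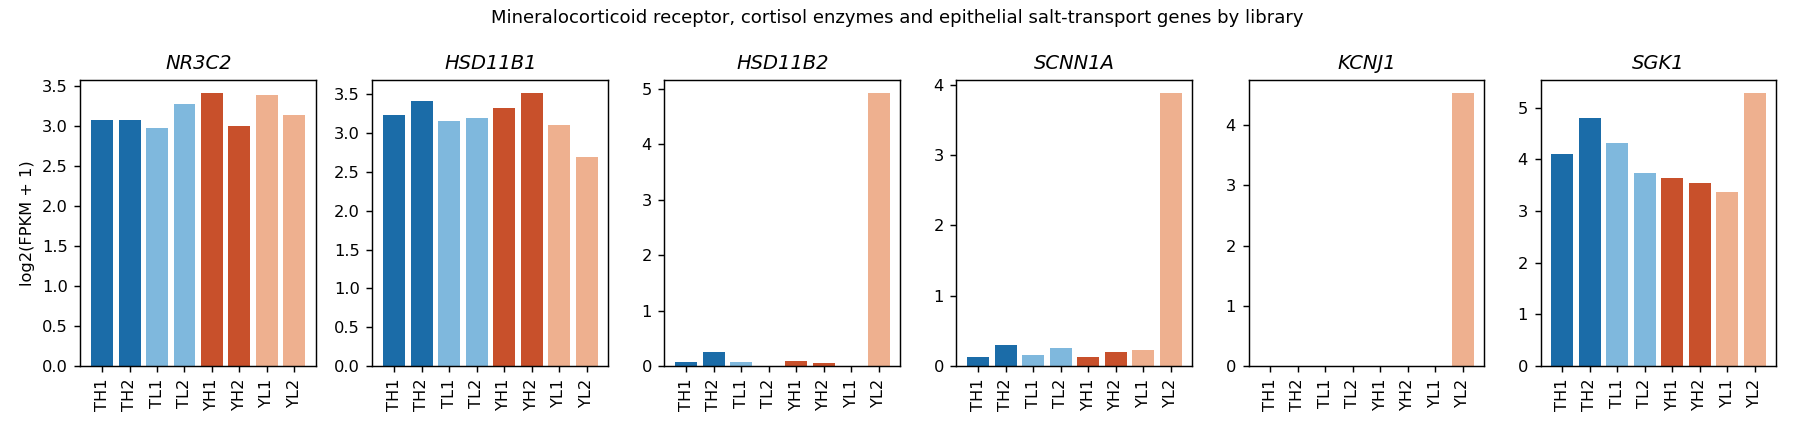
log2(FPKM + 1) from 0 for *NR3C2*, *HSD11B1*, *HSD11B2*, *SCNN1A*, *KCNJ1* and *SGK1*, with 1 bar per library coloured by group. *HSD11B2*, *SCNN1A* and *KCNJ1* are near 0 in 7 libraries and high in YL2, *SGK1* is highest in YL2, while *NR3C2* differs little among libraries and *HSD11B1* is lowest in YL2.

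*SGK1* (ENSSSCG00000021443, chromosome 1, 33250474 to 33256209) encodes a serum- and glucocorticoid-regulated kinase that in epithelia keeps sodium channels at the cell surface. Its level was 16.1 and 26.9 FPKM in TH, 18.9 and 12.4 FPKM in TL, 11.4 and 10.7 FPKM in YH, and 9.27 and 37.7 FPKM in YL. The 2 YL libraries are thus the lowest and the highest of the 8, 4.06 times apart. *SGK1* and *KLF9* were the 2 members highest in YL2, as were 24.7% of all genes tested. The part of the kidney RNA in the YL2 value was not tested.

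YL2 sets the sign of both *SGK1* comparisons with YL. TL to YL was -0.28 on the log2 scale (95% interval -1.71 to 1.14) and 0.67 without YL2. YH to YL was -0.73 (95% interval -2.15 to 0.70) and 0.23 without YL2. With YL1 left out instead, YH to YL was -1.68 at a limma adjusted p of 0.0473, the lowest adjusted p of any member under any setting, and then the YL group is YL2 alone.

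Leaving YL2 aside, all 4 Tibetan libraries had more *SGK1* than all 3 Yorkshire libraries, and *SGK1* was the 1 member of 10 with this order, against 8.07% of all genes tested. TH to YH was 0.86 with a standard error of 0.60 and a 95% interval of -0.57 to 2.28 (limma adjusted p = 0.506). Neither group holds YL2, but the standard error is shared over all 4 groups, YL included. Fitted on only the 4 libraries compared, the value of 0.86 had an unadjusted limma p of 0.0373 and an adjusted p of 0.289. The difference was 0.50 without TH2 and 1.21 without TH1. The value of 0.86 became -0.04 when each library was scaled to the same FPKM sum, and under that scaling the order of the 7 libraries was lost as well. The change with altitude differed between the breeds by 1.14 (95% interval -0.87 to 3.16, limma adjusted p = 0.621), and by 0.19 without YL2.

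The immediate early genes, which answer handling, stretch and many hormones within minutes, showed the same order of breeds. Of the 10 tested, 8 were higher in all 4 Tibetan libraries than in the 3 Yorkshire libraries. Their summed level was 518 and 607 FPKM in TH, 880 and 584 FPKM in TL, 102 and 187 FPKM in YH and 133 and 110 FPKM in YL. All 10 had a higher mean in the Tibetan group in both altitudes, by a median of 1.97 on the log2 scale in TH to YH and of 1.64 in TL to YL, but limma called 0 of them in either comparison, with 8 and 7 at an unadjusted p under 0.05, where all genes had shares of 16.2% and 8.94%. When libraries were scaled to the same FPKM sum, 8 of 10 were higher in TH and 3 of 10 kept the order of the 7 libraries. By level the first of them were *BTG2*, an inhibitor of cell division, the nuclear receptor gene *NR4A1*, the survival gene *IER3* and the stress-induced factor *ATF3*. In TH to YH their log2 fold changes were 1.78, 2.46, 0.97 and 2.50 (limma adjusted p of 0.314, 0.118, 0.274 and 0.0905). Without TH1 these fold changes were 1.95, 3.00, 0.48 and 2.68. The lowest adjusted p of the list was 0.0201, for *FOS*, a gene named after its values were seen. Their part in the *SGK1* values was not tested.

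*DUSP1*, a phosphatase that switches off stress kinases and responds to glucocorticoids as well as to stress itself, was at 172 and 232 FPKM in TH, 155 and 115 FPKM in TL, 42.7 and 60.1 FPKM in YH and 59.0 and 32.0 FPKM in YL. No Tibetan library overlaps a Yorkshire one, an order that *DUSP1* lost with equal FPKM sums. Of the 23 other glucocorticoid-induced genes tested it was the 1 with all 4 Tibetan libraries above YH1, YH2 and YL1, against 8.07% of all genes. TH to YH was 1.96 with a 95% interval of 1.08 to 2.83 (limma adjusted p = 0.0974), and TL to YL was 1.59 with an interval of 0.72 to 2.47 (limma adjusted p = 0.271), or 1.16 without YL2. Neither passed the threshold.

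**Figure D3:**
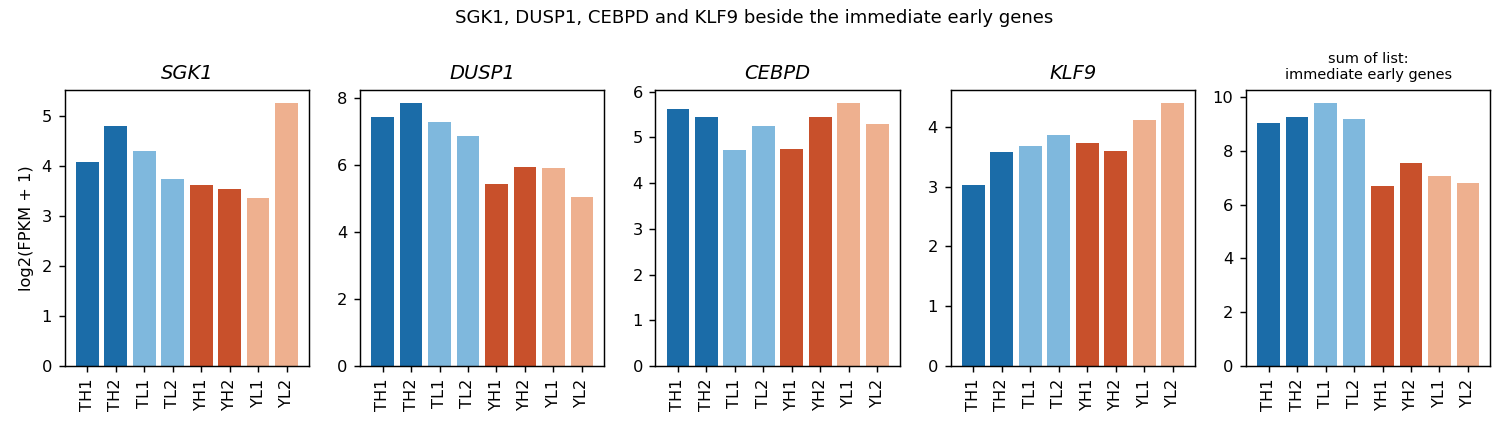
log2(FPKM + 1) from 0 for *SGK1*, *DUSP1*, *CEBPD* and *KLF9* and for the summed FPKM of the immediate early genes, with 1 bar per library coloured by group. *DUSP1* and the summed immediate early genes are higher in the 4 Tibetan libraries than in the 4 Yorkshire ones, *SGK1* shows this order apart from YL2, and *CEBPD* and *KLF9* do not.

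*FKBP5* (ENSSSCG00000001549, chromosome 7, 36373068 to 36478480) encodes an immunophilin that lowers the hormone affinity of the receptor complex, and it is one of the most sensitive glucocorticoid targets. Its level was 8.60 and 23.8 FPKM in TH, 7.02 and 7.55 FPKM in TL, 13.6 and 27.9 FPKM in YH and 22.1 and 9.83 FPKM in YL. The highest library was 3.97 times the lowest. Libraries of one group differed 2.77 times in TH, 2.05 times in YH and 2.24 times in YL, but 1.07 times in TL. The pooled within-group standard deviation of *FKBP5* was 0.71 on the log2 scale, at the 91.7th percentile of all genes tested, whose median was 0.30.

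Both TL libraries were the lowest of the 8, which held for 1 member of 10, and for 3.86% of all genes tested. TH to TL was 0.90 with a standard error of 0.57 (95% interval -0.46 to 2.26, limma adjusted p = 0.603), and ranged from 0.21 without TH2 to 1.58 without TH1. TL to YL was -0.93 (95% interval -2.29 to 0.43, limma adjusted p = 0.693), and was -1.48 without YL2 and -0.39 without YL1. TH1 was close to TL: with median-ratio scaling it was at 7.28, below the 7.56 of TL2, and with equal FPKM sums it was the lowest of all libraries at 3.15. The lowest place of TL thus depends on scaling.

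In all, 4 other glucocorticoid-induced genes of 23 tested had both TL libraries lowest, and these kept that order under both scalings. *PDK4*, which blocks the entry of pyruvate into the citric acid cycle, was at 6.50 and 34.7 FPKM in TL, against 183 and 154 FPKM in TH, 303 and 253 FPKM in YH and 359 and 77.7 FPKM in YL. Its TH to TL difference was 3.37 with a standard error of 0.88 (95% interval 1.28 to 5.45, limma adjusted p = 0.261). *ANGPTL4*, an inhibitor of lipoprotein lipase, was at 3.16 and 3.42 FPKM in TL and at 7.43 to 21.5 FPKM in the other 6 libraries. Its TH to TL difference was 1.88 (95% interval 0.88 to 2.88, limma adjusted p = 0.220), or 1.36 without TH1. Both genes are also induced by fatty acids and fasting.

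The metallothioneins bind zinc and copper and are induced by these metals as well as by glucocorticoids. *MT2A* was at 5.78 and 6.12 FPKM in TL, 116 and 50.1 FPKM in TH, 15.2 and 31.8 FPKM in YH and 18.3 and 360 FPKM in YL. *MT1A* was listed at 0 in TL1 and was at 0.198 FPKM in TL2, and it lay between 2.25 and 104 FPKM in the other 6. The highest value of both was in YL2, the library with the kidney genes, and the *MT2A* difference in TL to YL was -3.59 with it and -1.47 without. *ANGPTL4*, *MT1A* and *MT2A* were named after their values were seen.

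**Figure D4:**
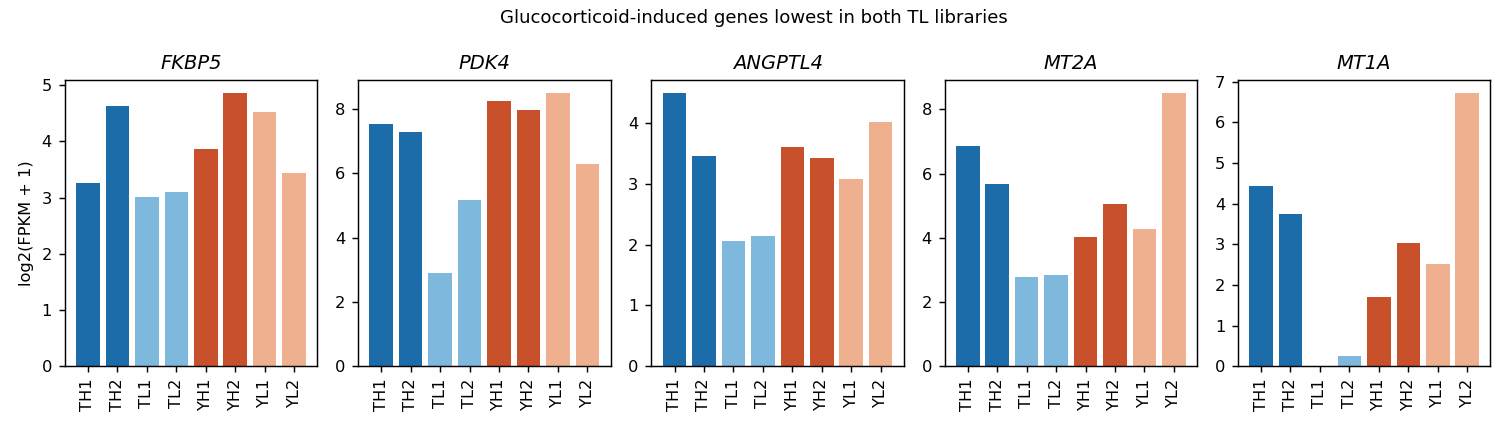
log2(FPKM + 1) from 0 for *FKBP5*, *PDK4*, *ANGPTL4*, *MT2A* and *MT1A*, with 1 bar per library coloured by group. The 2 TL bars are the shortest in each panel, but for *FKBP5* the TH1 bar is nearly as short, at 8.60 FPKM against 7.55 FPKM in TL2.

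Of the list of 30 other glucocorticoid-induced genes 24 were in the table and 23 were tested. Of these, 11 had a higher and 12 a lower mean in TH than in YH, with a median log2 fold change of -0.08 against -0.03 over all genes. The split was 14 to 9 in TL to YL (median 0.10), 12 to 11 in TH to TL (median 0.09) and 13 to 10 in YH to YL (median 0.06). With equal FPKM sums it was 3 to 20 in TH to YH, 6 to 17 in TL to YL and 5 to 18 in TH to TL (medians of -0.86, -0.22 and -0.31). Limma called 0 of the 23 in each of these comparisons, and 3, 6, 4 and 0 had an unadjusted p under 0.05 in the same order, where all genes had shares of 16.2%, 8.94%, 11.3% and 5.97%. Without YL2 the split was 8 to 15 in TL to YL (median -0.20) and 9 to 14 in YH to YL (median -0.13). Of the most abundant, *TXNIP*, which restrains glucose uptake, had a TH to TL difference of 0.36 (95% interval -0.63 to 1.35), which was 0.08 without TH1, and *TRIM63*, a ubiquitin ligase of muscle atrophy, one of -0.41 (95% interval -1.59 to 0.77).

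*TSC22D3* (ENSSSCG00000030241, chromosome X, 102611633 to 102614919) encodes the glucocorticoid-induced leucine zipper, which restrains inflammatory transcription factors. Its level was 24.8 and 30.8 FPKM in TH, 37.7 and 52.7 FPKM in TL, 30.2 and 36.0 FPKM in YH and 41.2 and 23.3 FPKM in YL. TL lay above TH without overlap. The TH to TL difference was -0.67 with a standard error of 0.33 (95% interval -1.45 to 0.11, limma adjusted p = 0.493), and ranged from -0.91 without TL1 to -0.43 without TL2. In YH to YL the value was 0.09, with a 95% interval of -0.69 to 0.86, and it was -0.31 without YL2 and 0.49 without YL1. *FKBP5* and *TSC22D3*, both standard readouts of the receptor, therefore had opposite orders of the Tibetan groups: *FKBP5* was lower in TL and *TSC22D3* higher, and neither difference passed the test.

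*ZBTB16* (ENSSSCG00000030095, chromosome 9, 46458176 to 46459448) encodes a zinc finger repressor that glucocorticoids induce in many tissues. The model spans 1273 bases, shorter than the coding sequence known in other mammals, so the values cover a fragment of the gene. They were 3.35 and 8.07 FPKM in TH, 7.47 and 4.52 FPKM in TL, 11 and 10.5 FPKM in YH and 11.8 and 5.86 FPKM in YL. The 2 YH libraries were within 1.04 times of each other and above both TH libraries. The TH to YH difference was -0.91 with a standard error of 0.45 (95% interval -1.97 to 0.16, limma adjusted p = 0.374), -1.44 without TH2 and -0.37 without TH1, whose *ZBTB16* value rests on 88 reads.

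*KLF9* (ENSSSCG00000021646, chromosome 1, 250030152 to 250057245) encodes a Krüppel-like repressor that responds within hours to glucocorticoids and thyroid hormone. It was at 7.16 and 11 FPKM in TH, 11.8 and 13.5 FPKM in TL, 12.2 and 11.1 FPKM in YH and 16.3 and 20.1 FPKM in YL. The 2 YL libraries were the highest and the 2 TH libraries the lowest of the 8, and none of the 4 comparisons overlapped. With median-ratio scaling TH2 (11.4) lay above YH2 (11.2), and with equal FPKM sums YH2 (17.2) lay above YL1 (12.7), so this order depends on scaling. The YH to YL difference was -0.59 (95% interval -1.19 to 0.01) at an unadjusted limma p of 0.0524 and an adjusted p of 0.784, and without YL2 it was -0.45. In TL to YL it was -0.49 (95% interval -1.09 to 0.11), and -0.35 without YL2.

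*KLF15* (ENSSSCG00000026755, scaffold GL896227.2, 46621 to 52812) encodes a related factor that directs amino acid and lipid use in heart muscle and opposes its growth. It was at 4.63 and 8.81 FPKM in TH, 11.8 and 15.2 FPKM in TL, 6.10 and 12.9 FPKM in YH and 23.1 and 15.8 FPKM in YL. In both breeds the lowland libraries were above the highland ones without overlap, as for *KLF9*, but with equal FPKM sums YH2 (19.9) lay above YL1 (18.0). YH to YL was -1.02 with a standard error of 0.42, a 95% interval of -2.01 to -0.03 and an unadjusted limma p of 0.0456, which was 0.784 after adjustment. It ranged from -1.50 without YH2 to -0.54 without YH1, and was -1.28 without YL2. TH to TL was -0.96 with a 95% interval of -1.95 to 0.04 (limma adjusted p = 0.453), -0.56 without TH1 and -1.36 without TH2. The change with altitude differed between the breeds by 0.06 for *KLF15* (95% interval -1.34 to 1.47) and by 0.14 for *KLF9* (95% interval -0.71 to 0.98).

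*CEBPD* (ENSSSCG00000006276, chromosome 4, 87368560 to 87610320) encodes a transcription factor of the acute phase response that glucocorticoids and cytokines induce. Its model spans 241761 bases and overlaps the spans of 2 other gene models, *KIAA0146* and ENSSSCG00000006278. Only spans were compared, so whether reads of those genes enter its values was not tested. It was at 48.3 and 42.6 FPKM in TH, 25.6 and 36.9 FPKM in TL, 25.8 and 42.3 FPKM in YH and 53.1 and 38.5 FPKM in YL. TH lay above YH, while TL lay below YL, both without overlap. With median-ratio scaling TH1 (40.9) lay below YH2 (42.7). TH to YH was 0.45 (95% interval -0.32 to 1.22, limma adjusted p = 0.520) and -0.51 with equal FPKM sums, and it ranged from 0.10 without YH1 to 0.79 without YH2. TL to YL was -0.54 (95% interval -1.31 to 0.23, limma adjusted p = 0.684), and ranged from -0.80 without TL2 to -0.28 without TL1 (-0.31 without YL1, -0.77 without YL2).

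**Figure D5:**
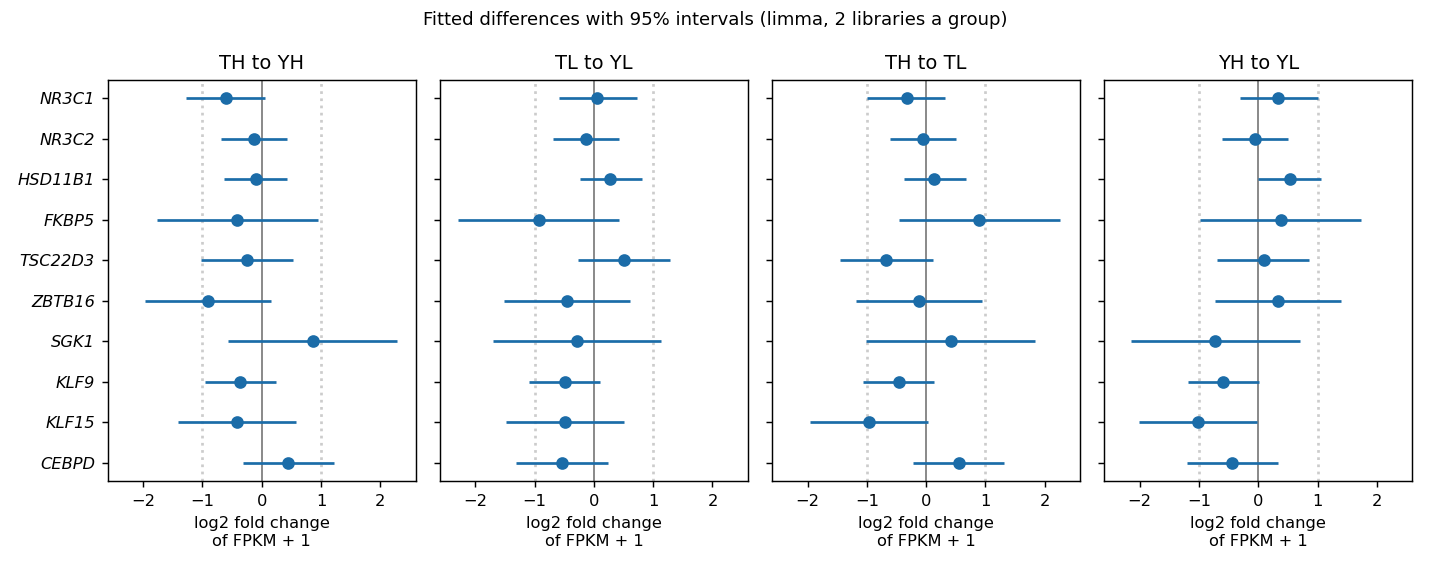
Fitted log2 fold changes of FPKM + 1 (points) with 95% intervals (lines) for the 10 genes in the 4 comparisons, with 2 libraries in each group; positive values are higher in the first group named, and dotted lines mark a log2 fold change of 1 in either direction. Apart from *KLF15* and *HSD11B1* in YH to YL every interval crosses 0, and those of *FKBP5* and *SGK1* are the widest.

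Taken over the 10 genes, 2 had a higher and 8 a lower mean in TH than in YH, with a median log2 fold change of -0.30 against -0.03 over all genes tested. In TL to YL the split was 3 to 7 with a median of -0.37 against 0.02. It was 4 to 6 in TH to TL (median -0.09 against -0.02) and 5 to 5 in YH to YL (median 0.01 against 0.03). Without TH1 the TH to YH median of the 10 genes was -0.05, with 3 higher and 7 lower, and that of TH to TL was 0.14, with 6 higher and 4 lower. Without YL2 the median was -0.30 in TL to YL and -0.17 in YH to YL, with 3 higher and 7 lower in each. With equal FPKM sums 0 were higher in TH than in YH, 1 was in TL than in YL and 1 in TH than in TL (medians of -1.19, -0.69 and -0.55), a scaling that moved the median of all genes to -0.74, -0.28 and -0.44. Groups did not overlap for 5 members in TH to YH, where 52.5% of all genes did not, and for 5 in TL to YL (41.5%), 6 in TH to TL (48.5%) and 4 in YH to YL (36.3%). These shares are near those of all genes. TH to YH and TH to TL share the TH libraries, and each other group likewise enters 2 of the comparisons, so the values are not independent.

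The 2 libraries of a group lay far apart for several targets and close together for *NR3C2* and *HSD11B1*. The pooled within-group standard deviation was 0.75 on the log2 scale for *SGK1* (92.9th percentile of all genes tested), 0.71 for *FKBP5*, 0.54 for *ZBTB16* (82.9th) and 0.50 for *KLF15* (79.5th). It was 0.20 for *NR3C2* (26.1st percentile) and 0.17 for *HSD11B1* (18.9th). The median was 0.35 over the 10 genes and 0.30 over all genes, and 6 of the 10 lay above the latter. TH1 held the lowest value of 4 members, TL1 of 3, YL2 of 2 and YL1 of 1.

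Chaperones and cofactors of the receptor had 15 genes tested. Their median log2 fold change was 0.07 in TH to YH, -0.03 in TL to YL, 0.07 in TH to TL and 0.02 in YH to YL. With equal FPKM sums 0 of 15 were higher in TH to YH (median -0.70), 1 of 15 in TL to YL (median -0.35) and 4 of 15 in TH to TL (median -0.29). Limma called 0 in each comparison, with 2 at an unadjusted p under 0.05, both in TH to TL, where 11.3% of all genes reached it. *HSP90AA1*, the heat shock protein that holds the receptor ready for hormone, was at 673 and 491 FPKM in TH, and at 303 and 314 FPKM in TL. In the Yorkshire groups, which overlapped, it was at 286 and 511 FPKM in YH and at 441 and 232 FPKM in YL. Its TH to TL difference was 0.90 (95% interval -0.11 to 1.90, limma adjusted p = 0.480). *FKBP4*, the immunophilin that helps the loaded receptor to the nucleus and competes with *FKBP5*, differed by 0.67 (95% interval 0.01 to 1.33, limma adjusted p = 0.438), and by 0.38 without TH1. *STIP1*, which hands the receptor from one chaperone to the next, differed by 0.54 (95% interval -0.26 to 1.34; 0.37 without TH1), and *PTGES3*, the cochaperone p23, by -0.29 (95% interval -0.80 to 0.21).

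Levels of other cells' markers were compared in the same way, and none was called. Of 7 T and NK cell markers tested, 7 had a lower mean in TH than in YH, all at an unadjusted limma p under 0.05 (16.2% of all genes), with 0 called. In YH to YL all 7 had a higher mean in YH, 6 of them at that p (5.97% of all genes), again with 0 called. Their summed level was 34.4 and 20.8 FPKM in TH, 35.9 and 41.4 FPKM in TL, 70.1 and 80.6 FPKM in YH and 36.8 and 39.1 FPKM in YL, and no marker in the table was at 0 in any library. Summed atrial markers were 6.63e+03 and 5.41e+03 FPKM in TH and 407 to 2.7e+03 FPKM in the other 6 libraries, and *MYL7* and *NPPA* made up most of them. *SLN* was also higher in TH, with 56.5 and 16.3 FPKM against at most 3.52 FPKM elsewhere. *MYH6* was at 20.6 and 18.4 FPKM in TH, at 2.6 FPKM in YL2 and at 75.1 to 246 FPKM in the other 5 libraries, and *MYL4* was highest in TL2 at 21.4 FPKM. *MYBPHL* was too low to be tested, listed at 0 in the 4 Tibetan libraries, at 0.031 to 0.0512 FPKM in YH1, YH2 and YL1 and at 1.54 FPKM in YL2. *NR2F2* was at 5.49 and 6.74 FPKM in TH and was highest in YL2 at 14.4 FPKM. *MYL4*, *MYBPHL* and *NR2F2* were named after their values were seen. The part of these cells in the values of the 10 genes was not tested.

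The remaining lists gave medians of log2 fold changes that are given first for the breeds (TH to YH, then TL to YL) and next for altitude (TH to TL, then YH to YL). The 14 clock genes, some of which glucocorticoids reset, had medians of 0.28, -0.16, -0.24 and -0.35, the first of which was -0.64 with equal FPKM sums. *PER1*, a clock repressor that glucocorticoids induce directly, was at 48.8 and 45.4 FPKM in TH, 59.2 and 51.8 FPKM in TL, 26.5 and 40.5 FPKM in YH and 64.0 and 34.1 FPKM in YL, and TH lay above YH (0.51, 95% interval -0.32 to 1.34). The 6 epithelial mineralocorticoid targets that could be tested had medians of -0.03, -0.50, 0.01 and -0.36. *ATP1B1*, a subunit of the sodium pump, was at 411 FPKM in YL2 and at 183 to 251 FPKM elsewhere.

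Fibroblast markers (9 tested) had medians of -0.07, 0.99, -0.23 and 0.45, cardiomyocyte markers (9) of 0.05, 0.59, -0.42 and 0.27, and atrial markers (6) of 1.60, 1.08, 0.52 and -0.12. Endothelial markers (7) had medians of -0.63, 0.55, -0.49 and 0.56, and macrophage markers (6) of -0.70, 0.16, -0.22 and 0.37. Adipocyte markers (4) had medians of -0.32, 0.29, -0.16 and 0.34, and liver markers (4) of 0.12, -1.11, 0.20 and -0.90. Several of these medians turned with 1 library left out. Without TH1 those of TH to YH were 1.52 for fibroblast, -0.37 for cardiomyocyte and -0.07 for liver markers, and those of TH to TL were 0.28 for fibroblast, 0.29 for endothelial and -0.03 for liver markers. Without YL2 the cardiomyocyte median was -0.12 in TL to YL and -0.40 in YH to YL, the clock median 0.19 in TL to YL and the atrial median 0.03 in YH to YL. Scaling turned others. With median-ratio scaling the cardiomyocyte median was -0.08 in TH to YH and that of the epithelial targets -0.09 in TH to TL. With equal FPKM sums the TH to YH medians were -0.94 for cardiomyocyte and -0.22 for liver markers, the TH to TL medians -0.04 for atrial markers and -0.52 for the epithelial targets, and the TL to YL median -0.14 for macrophage markers. Of the steroid supply, kidney and skeletal muscle lists 2 genes each could be tested. Limma called 0 genes of these lists in any comparison, and at most 5 of a list, the fibroblast markers in TL to YL, had an unadjusted p under 0.05, which 8.94% of all genes had there.

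For 3 targets the genes with the most similar pattern over the 7 libraries other than YL2 were sought by the root mean square difference of centred log2 levels. For *FKBP5*, whose own root mean square was 0.73, they were ENSSSCG00000004560 (0.24), *AHNAK* (0.26) and *RNF19B* (0.26). For *TSC22D3* (0.32) they were *MFGE8* (0.12), *MTERFD1* (0.13) and the cochaperone *DNAJB1* (0.13). For *ZBTB16* (0.55) they were ENSSSCG00000025558 (0.13), ENSSSCG00000030508 (0.19) and *CASP1* (0.19).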

How the data were processed

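Heart RNA-seq of 8 libraries was analysed, 2 for each of TH, TL, YH and YL, each a pool of 4 pigs. The authors mapped reads to Sscrofa10.2 with TopHat2 2.0.9 (the submitters' processing notes also name Bowtie 0.12.5 and DESeq 1.10.1) and deposited FPKM values from Cufflinks. The deposited table also holds a signal per gene, reads divided by 1 factor per library, whose smallest steps gave the reads quoted here (99.7% to 99.8% of values below 1000 reads were whole within 0.05). The 8 columns of group means and ratios, the authors' own comparisons, were not used. The labels point both YL samples to the TL group file, so libraries were taken by the titles in the table of all samples. The methods call the pools of a group biological replicates, so p-values rest on the spread between the 2 pools of a group, shared over the 4 groups.

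Log2(FPKM + 1) was fitted with limma 3.58.1 in R 4.3.3, as 1 linear model with a term per group (4 residual and 2.83 prior degrees of freedom), for the 11913 genes that reached 1 FPKM in 2 or more libraries. A pseudocount of 1 understates changes of low genes. P-values were adjusted over all genes tested by the Benjamini-Hochberg method, and intervals cover 95%. The interaction was (TH - TL) - (YH - YL). The fit was tested on simulated data.

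The 10 genes and the lists were chosen with earlier results of these data known. Lists covered receptor chaperones and cofactors, steroid supply, other glucocorticoid-induced genes, epithelial mineralocorticoid targets, immediate early and clock genes, and markers of kidney, liver, adrenal cortex, adipocytes, cardiomyocytes, atrium, endothelium, fibroblasts, macrophages, T and NK cells and skeletal muscle. Named were all 10 genes, up to 4 genes per list by mean FPKM, any called list gene, and the 3 genes most like *FKBP5*, *TSC22D3* and *ZBTB16*. Other genes are marked as named after their values were seen. Symbols came from the table (14256 genes) and a gene name table (1025). Alternatives were a pseudocount of 0.1, other filters, 2 scalings, moderation without trend, a replicate term, only the libraries compared, other thresholds and each library left out. Limma on the scaled reads, an unadjusted p under 0.05 and list values without TH1 or YL2 (differences of group means) were chosen after seeing the data. Other tools were Python 3.11.15, numpy 2.4.6, pandas 2.3.3 and matplotlib 3.10.9.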

Additional observations from a re-analysis of the deposited data

Results flagged for a closer look

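*CEBPD* differed between the breeds in opposite directions at the 2 altitudes. Both TH libraries were above both YH libraries, with a log2 fold change of 0.45, while both TL libraries were below both YL libraries, with a log2 fold change of -0.54. The difference between these values, the interaction, was 0.99 with a standard error of 0.46 and a 95% interval of -0.10 to 2.08 (limma adjusted p = 0.491), and ranged from 0.64 to 1.34 with 1 library left out. It did not pass the threshold. The highland value alone ranged from 0.10 without YH1 to 0.79 without YH2, and the lowland value from -0.80 without TL2 to -0.28 without TL1. With median-ratio scaling the TH and YH libraries overlapped. With equal FPKM sums the highland difference was -0.51, so both directions were then the same.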

How the results depend on the processing

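None of the 10 genes was called under any alternative run, apart from 2 in YH to YL at an unadjusted limma p under 0.05. Of 696 log2 fold changes under alternatives, 667 kept their sign and 29 did not. Scaling to equal FPKM sums turned *SGK1* (-0.04) and *CEBPD* (-0.51) in TH to YH, *NR3C1* (-0.22) and *HSD11B1* (-0.02) in TL to YL, and *HSD11B1* (-0.38), *SGK1* (-0.15) and *CEBPD* (-0.07) in TH to TL. It moved the median of all genes by construction, to -0.74, -0.28 and -0.44 in these comparisons. Median-ratio scaling turned *NR3C1* in TL to YL (-0.01), and limma on the scaled reads, a setting chosen after seeing the data, turned *NR3C2* in TH to YH (0.05); the cause was not tested.

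With 1 library left out, where a group's lone library is assumed to vary like the others, the sign turned for the following ranges. In TH to YH they were -0.34 to 0.08 for *NR3C2*, -1.10 to 0.27 for *FKBP5* and -0.90 to 0.07 for *KLF15*. In TL to YL they were -0.02 to 0.15 for *NR3C1*, -0.29 to 0.02 for *NR3C2* and -1.24 to 0.67 for *SGK1*. In TH to TL they were -0.70 to 0.04 for *NR3C1*, -0.21 to 0.10 for *NR3C2* and -0.65 to 0.41 for *ZBTB16*. In YH to YL they were -0.27 to 0.15 for *NR3C2*, -0.17 to 0.92 for *FKBP5*, -0.31 to 0.49 for *TSC22D3*, -0.12 to 0.78 for *ZBTB16* and -1.68 to 0.23 for *SGK1*.

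The labels give the groups the same replicate numbers without saying that these pair the pools, and deviations of same-numbered libraries correlated at -0.08 to 0.12 across genes. With the replicate block 0 members were called in each comparison, and of all genes 3 in TH to YH, 1 in TL to YL, 4 in TH to TL, 0 in YH to YL and 4 in the interaction. The filter at a mean of 10 FPKM kept 4270 genes and 6 members. A count model was not run, and the interaction could not be fitted on the 4 libraries of 1 comparison.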
